A study of Mus musculus with 6 samples.

Results

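Genes of the trophoblast lineage, the placental cells that surround the embryo, were examined on arrays of the mouse mandibular arch, the tissue that forms the lower jaw. The set consisted of 10 genes chosen by name: the transcription factors Cdx2, Eomes, Elf5, Tfap2c, Ascl2, Gata2, Gata3 and Gcm1, and the subtype markers Tpbpa and Syna. Probe sets that the platform annotation assigns to 1 of these symbols were taken, which gave 18 probe sets for 8 of the genes, out of 34958 probe sets for 18194 genes in all. Gcm1 and Syna, the members of the syncytial layer, had no probe set annotated to their symbol alone, so their transcripts were not analysed here. Sets annotated to several symbols were not used. The genes were selected because an earlier look at these data had shown placental transcripts on 1 array, labelled-null replicate 3, and the question asked was which trophoblast layer that signal resembles.

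The arches came from C57BL/6 embryos at stage E10.5, either Tbx1+/+ (wild type) or homozygous Tbx1-/- (here called labelled null), with 3 Affymetrix Mouse Genome 430 2.0 arrays per genotype. Tbx1 encodes a T-box factor of pharyngeal development, and the genotypes were compared to find transcripts that its loss alters in the arch. The tissue of 3 embryos was pooled by genotype, and it is not stated if every array had a separate pool, so p-values cover the spread between arrays and no more. Values are GCRMA expression on the log2 scale, on which a difference of 1 is a doubling, and 4 was used as the level above which a probe set was called readable.

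Trophoblast forms several layers. Stem cells of the extraembryonic ectoderm are kept by Cdx2, Eomes, Elf5 and Tfap2c. The ectoplacental cone needs Ascl2 and gives rise to the spongiotrophoblast, whose hallmark transcript is Tpbpa. Gata2 and Gata3 drive hormone genes of the trophoblast giant cells, and the labyrinth's syncytiotrophoblast depends on Gcm1 and on the fusion protein syncytin A, the product of Syna. Several of these genes also work outside the placenta: Gata2 and Gata3 in embryonic tissues of the head, Gata2 in blood and endothelium, Tfap2c in ectoderm and neural crest, and Eomes in natural killer cells.

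The series as a whole sets 2 limits on these values. Tbx1 itself, read by 1 probe set, was not lower on the labelled-null arrays (7.59, 7.50 and 7.30, against 6.93, 7.31 and 6.92 on the wild-type arrays). Which part of the gene was disrupted is not stated in the labels, and this set is therefore no check of them. Labelled-null replicate 3 stood apart: 229 of 18194 genes (1.26%) read at least 1 above the highest of the other 5 arrays there, against 0 to 2 genes on each of the other arrays counted the same way. The markers of arch mesenchyme, such as Dlx2, Prrx1 and Msx1, were above 4 on all arrays for 9 of 9 genes, and their summed log2 level was 91.88 on labelled-null replicate 3, inside the range of 91.59 to 92.26 on the wild-type arrays.

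The promoters of Tpbpa, Eomes and Gata2, the 3 members that read furthest above the other arrays on labelled-null replicate 3 by their brightest sets, are shown so that their sequence can be compared, 250 bases upstream of the annotated start (RefSeq, GRCm38.p6), written 5′ to 3′ on the gene's strand. Capitals mark matches to the AP-2 motif GCCNNNGGC, the motif of the protein family of the member Tfap2c. Tpbpa lies at chr13:60941937-60942186 on the minus strand, Eomes at chr9:118477939-118478188 on the plus strand and the first Gata2 start at chr6:88193641-88193890 on the plus strand.
Tpbpa: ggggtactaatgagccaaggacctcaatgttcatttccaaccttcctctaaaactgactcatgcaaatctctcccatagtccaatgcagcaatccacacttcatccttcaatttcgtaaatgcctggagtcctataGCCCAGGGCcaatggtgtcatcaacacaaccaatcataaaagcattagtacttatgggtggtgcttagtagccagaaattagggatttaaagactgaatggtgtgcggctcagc
Eomes: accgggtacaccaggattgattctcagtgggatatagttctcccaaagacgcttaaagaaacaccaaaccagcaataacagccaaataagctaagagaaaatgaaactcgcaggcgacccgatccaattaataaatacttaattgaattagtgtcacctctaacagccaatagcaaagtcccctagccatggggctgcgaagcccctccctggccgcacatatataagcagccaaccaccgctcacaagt
Gata2: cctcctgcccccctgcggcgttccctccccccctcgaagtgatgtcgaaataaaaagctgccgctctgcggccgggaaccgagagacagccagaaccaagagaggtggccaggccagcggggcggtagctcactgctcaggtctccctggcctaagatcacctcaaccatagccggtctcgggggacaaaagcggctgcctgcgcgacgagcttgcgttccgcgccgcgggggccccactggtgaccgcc

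The table of promoters held 11 windows for 9 of the 10 genes, and 5 of the 11 windows held the AP-2 motif, which reads the same on both strands and was found in 13.7% of 32851 windows of this length. Gata3 held 3 non-overlapping matches, and Tpbpa, Cdx2, Syna and the second Gata2 start 1 each. The GATA motifs AGATAA and TGATAA, searched on both strands and present in 9.99% and 7.94% of all windows, were found in none of the 11, and the T-box motif AGGTGT, in 11.8% of all windows, was found in those of Elf5, Ascl2 and Syna. The windows differed in CpG content, with 2 CpG dinucleotides in the Tpbpa window, 8 in that of Eomes and 22 in that of the first Gata2 start. These letter matches describe the windows and are no measure of binding.

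**Figure D1:**
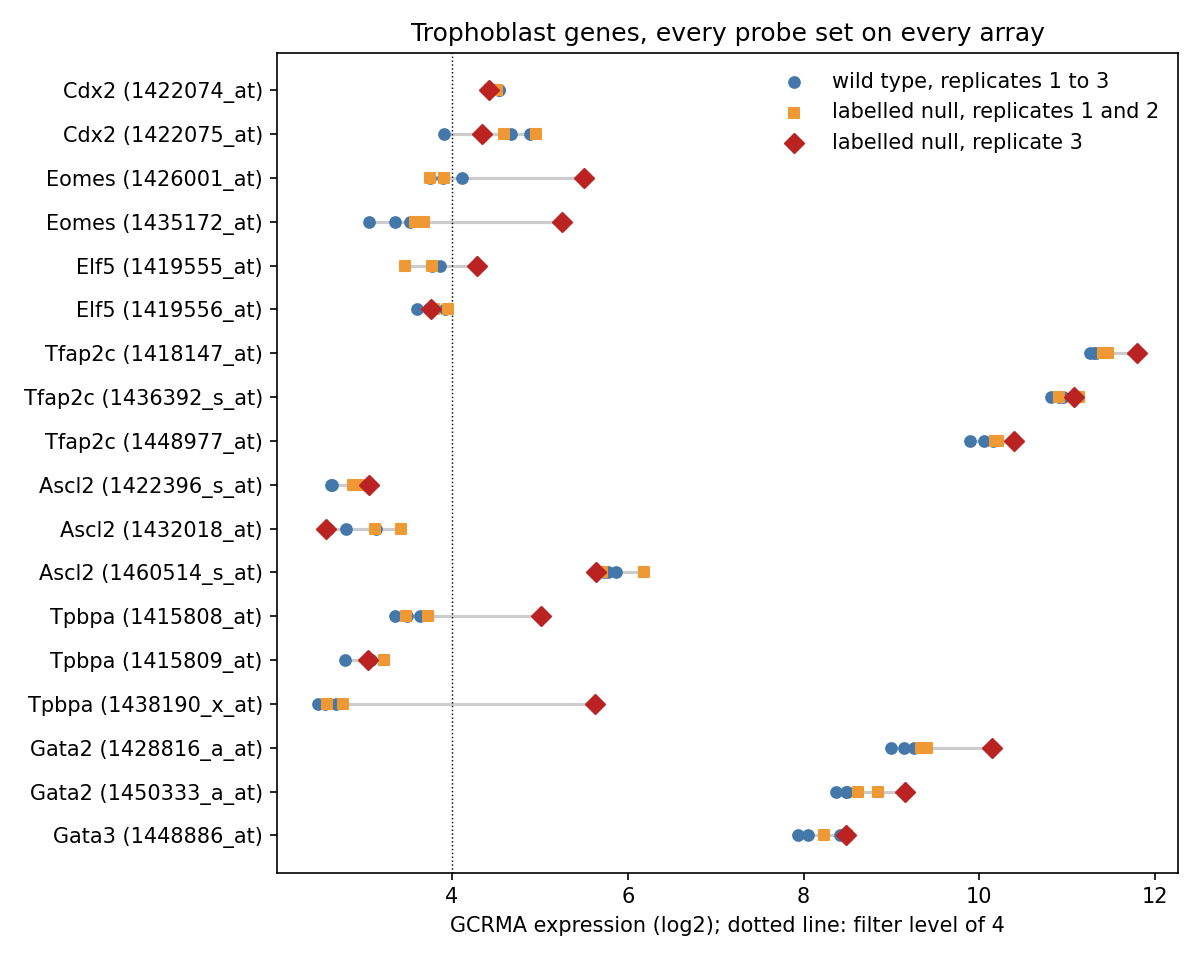
GCRMA expression (log2, horizontal axis) of the 18 probe sets of 8 trophoblast genes, 1 row per probe set and 1 point per array, with the dotted line at 4. Labelled-null replicate 3 (diamond) lies at least 1 above all other arrays on both Eomes sets and on 2 of 3 Tpbpa sets, and within the other arrays on both Cdx2 sets.

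Among the stem cell factors, Eomes was the member that stood at least 1 above the other arrays on labelled-null replicate 3. Eomes encodes a T-box factor that maintains trophoblast stem cells. Its brighter set read 4.11, 3.75 and 3.90 on the wild-type arrays and 3.75, 3.91 and 5.50 on the labelled-null arrays. Its second set read 3.06, 3.35 and 3.52, and 3.58, 3.68 and 5.25. On both sets only labelled-null replicate 3 was well above 4, by 1.61 and 1.81 over the mean of the other 5 arrays, while those 5 lay between 3.06 and 4.11. Since those means are below the readable level of 4, no fold is given. The second set did not overlap between genotypes, and the first did.

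Cdx2 and Elf5 did not share this pattern. Cdx2, a caudal homeobox factor at the top of the stem cell network, read 4.89, 3.91 and 4.67 on the wild-type arrays and 4.96, 4.59 and 4.34 on the labelled-null arrays on its brighter set. Its other set lay between 4.41 and 4.54 on all 6 arrays. Labelled-null replicate 3 was inside the range of the other arrays on both, by -0.26 and -0.07 against their mean. Elf5, an Ets factor of the extraembryonic ectoderm, read 3.86, 4.27 and 3.77 on the wild-type arrays and 3.77, 3.47 and 4.29 on the labelled-null arrays, and its second set never exceeded 4. On the first set labelled-null replicate 3 was 0.02 above wild-type replicate 2, and on the second it was 0.20 below the highest array, so the genotypes overlapped on both.

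Tfap2c, which encodes AP-2 gamma, read far above the filter level on every array and on all of its 3 sets. The brightest read 11.26, 11.31 and 11.33 on the wild-type arrays and 11.46, 11.41 and 11.79 on the labelled-null arrays. All 3 labelled-null values lay above the wild-type values on this set, and so did those of the third set, where labelled-null replicate 3 was again the highest array, at 10.40. On the second set labelled-null replicate 1 was the highest, at 11.14, and the genotypes overlapped. Against the mean of the other arrays, labelled-null replicate 3 differed by 0.44, 0.13 and 0.31 on the 3 sets.

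Of the spongiotrophoblast genes, Tpbpa read higher on labelled-null replicate 3 and Ascl2 did not. Tpbpa encodes trophoblast specific protein alpha, a secreted protein of the spongiotrophoblast. Its brightest set read 3.64, 3.49 and 3.35 on the wild-type arrays and 3.48, 3.73 and 5.01 on the labelled-null arrays. A second set read 2.48, 2.56 and 2.68, and 2.58, 2.76 and 5.63, so that labelled-null replicate 3 exceeded the average of the remaining 5, all of which lay below 4, by 3.02. The third set was below 4 on every array, between 2.78 and 3.23, and labelled-null replicate 3 read 3.05 there. The 3 sets thus disagreed on 1 array, and apart from that array none of them exceeded 3.73. The second set is of a type (suffix x) that can hybridize with related transcripts. Tpbpb, the paralog of Tpbpa, was named after its values were seen. Its brighter set, also of the suffix x type, read 5.12 on labelled-null replicate 3 and between 4.65 and 5.25 on the others. Its other set stayed below 4 on every array, at 3.01 on labelled-null replicate 3 and 2.56 to 2.98 elsewhere.

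Ascl2, a basic helix-loop-helix factor needed for the ectoplacental cone, had 1 readable set. It read 5.73, 5.87 and 5.78 on the wild-type arrays and 6.18, 5.71 and 5.64 on the labelled-null arrays. Labelled-null replicate 3 was the lowest array and labelled-null replicate 1 the highest. The other 2 sets stayed below 4 on every array, and labelled-null replicate 3 was 0.24 above the mean of the others on one and 0.45 below it on the other (-0.45).

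Gata2 was the giant cell member with the larger difference, and it was readable in the arch on every array. Gata2 is a zinc finger factor that acts on prolactin-family promoters in giant cells. Its brighter set read 9.00, 9.14 and 9.26 on the wild-type arrays and 9.41, 9.34 and 10.15 on the labelled-null arrays. Its second set read 8.37, 8.48 and 8.50, and 8.85, 8.62 and 9.15. Labelled-null replicate 3 was the highest array on both, by 0.92 (1.89-fold) and 0.58 (1.50-fold) over the mean of the other arrays, and all 3 labelled-null arrays lay above the wild-type arrays on both sets. Without labelled-null replicate 3 the remaining labelled-null arrays were still 0.24 and 0.28 above the wild-type mean.

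Gata3, the related factor of the trophectoderm and giant cells, had 1 set. It read 8.41, 7.94 and 8.05 on the wild-type arrays and 8.49, 8.23 and 8.48 on the labelled-null arrays. Labelled-null replicates 1 and 3 and wild-type replicate 1 were within 0.1 of each other at the top, and the genotypes overlapped. Among the other GATA genes, Gata4 read between 4.34 and 4.85 on 5 arrays and 5.63 on labelled-null replicate 3, and Gata6 read 5.82, 5.38 and 6.08 on the labelled-null arrays against 4.71 to 5.03 on the wild-type arrays on its brightest set, while its other 2 sets overlapped between genotypes. Gata1, the factor of red blood cells, read 7.06 on labelled-null replicate 3, the lowest of the 6 arrays.

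**Figure D2:**
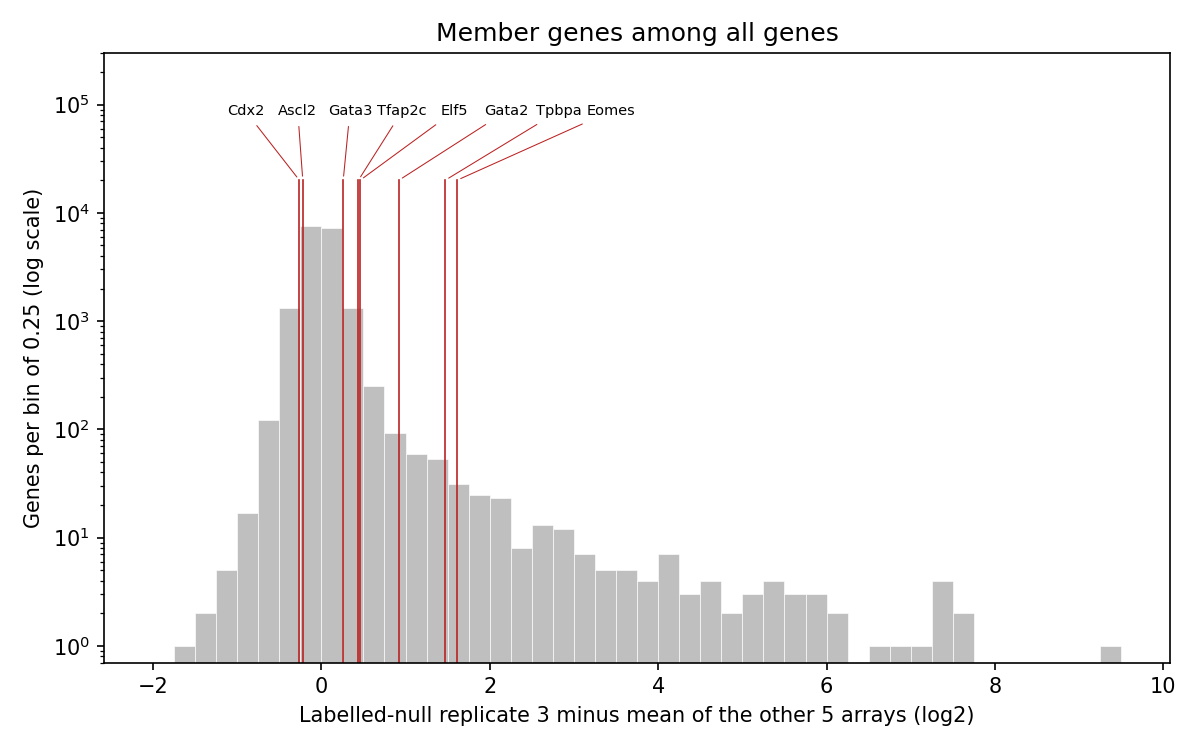
Number of genes (vertical log axis) by the difference between labelled-null replicate 3 and the mean of the other 5 arrays (log2, horizontal axis, bins of 0.25), with a line at each of the 8 member genes by its brightest set. Cdx2 and Ascl2 lie below 0, and Tpbpa and Eomes at 1.47 and 1.61, far short of the highest gene at 9.30.

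Counted over the set, 2 of 8 member genes, Eomes and Tpbpa, read at least 1 above the highest of the other arrays on labelled-null replicate 3, beside 1.26% of all genes. By probe sets the count was 4 of 18, beside 0.904% of all sets. Labelled-null replicate 3 was the highest array for 5 of 8 member genes, beside 19.1% of all genes, and for 10 of 18 member sets, beside 16.6% of all sets, and the median difference from the mean of the other arrays was 0.45 over the members and 0.00 over all genes. As 1 array against 5, these counts have no replicate check and no test. In the order of all 18194 genes by this difference, Eomes stood at place 161, Tpbpa at 180, Gata2 at 317, Elf5 at 704, Tfap2c at 759, Gata3 at 1856, Ascl2 at 16205 and Cdx2 at 16864. The other arrays averaged below 4 for Eomes, Tpbpa and Elf5, so their places are approximate. By their brightest sets no member approached the genes with the largest differences, and 97 genes, 0 of them members, stood at least 2 above the highest of the other arrays. The second Tpbpa set, which did not represent the gene in this count, stood 2.88 above the highest of the other arrays.

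Further markers of each layer were counted in the same way, and each count stands beside 1.26% of all genes. The lists are short and some lack defining genes, so the counts do not rank the layers. In the giant cell list 2 of 5 genes with a probe set stood at least 1 above the other arrays. Prl4a1, a placental prolactin family hormone, read 13.19 on labelled-null replicate 3 and 5.26 to 6.04 elsewhere. Cyp11a1, the enzyme that starts steroid synthesis, read 11.80 and 4.50 to 4.74 on its brightest set. Its other 2 sets did not follow: one read 5.20 on labelled-null replicate 3, the lowest array, and 5.24 to 5.58 elsewhere, and the other stayed below 4 on all arrays, at 2.97 on labelled-null replicate 3. Hand1, a giant cell regulator that is also active in the distal arch, read 9.63 and 8.35 to 8.81, and Ctsq, a cathepsin of sinusoidal giant cells, read 4.56 and 3.59 to 3.85. Cts6, a further placental cathepsin, stayed below 4 on every array and read 2.96, the lowest of the 6 arrays. For 4 of the 9 listed genes no set was annotated to that symbol alone, among them the giant cell lactogens Prl3d1 and Prl3b1.

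In the spongiotrophoblast and glycogen cell list 2 of 14 genes stood at least 1 above. Prl8a9, a prolactin family member, read 10.85 on labelled-null replicate 3 and 2.76 to 3.68 elsewhere. Psg19, a pregnancy-specific glycoprotein, read 8.29 and 2.51 to 2.69. The next in size were Prl8a6 and Psg17, 0.56 and 0.52 above the mean of the other arrays, and the list median was 0.01. These large differences and that of Tpbpa therefore came with no common shift of the list.

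In the list of other stem cell and extraembryonic ectoderm genes 1 of 7 stood at least 1 above: Tead4, a TEA-domain factor of the trophectoderm, which read 6.06 on labelled-null replicate 3 and 4.23 to 4.76 elsewhere, and on its second set 5.02 and 4.42 to 4.94. Esrrb, an orphan receptor of trophoblast stem cells, was 0.36 above the mean of the other arrays, Sox2 was lower by -0.27, and Ets2 differed by 0.12. In the syncytiotrophoblast list the count was 0 of 9, with a median of -0.01. Beside 1.26% of all genes, a count of 0 does not set this list apart. Gjb2, a connexin, read 8.77, the lowest of the 6 arrays, and Slc16a3, a lactate transporter, differed by 0.36. Slc16a3 read 9.53, 9.48 and 9.71 on the wild-type arrays and 10.69, 10.17 and 10.28 on the labelled-null arrays, so all labelled-null arrays were higher and replicate 3 was not the highest (adjusted p = 0.293 in limma). All 9 syncytial genes with a set were above 4 on the other arrays as well. Gcm1, Syna and Synb were not analysed here.

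**Figure D3:**
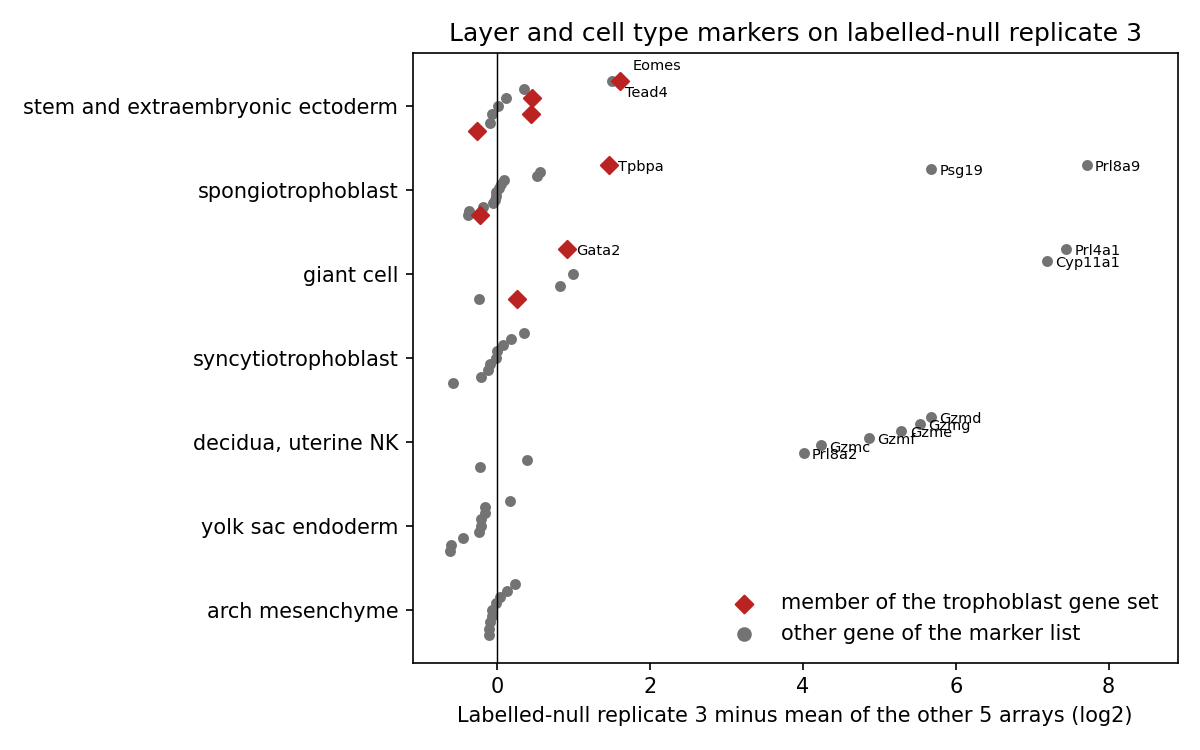
Difference between labelled-null replicate 3 and the mean of the other 5 arrays (log2, horizontal axis) for the genes of each marker list (rows), each by its brightest set, with the members as red diamonds. Giant cell and spongiotrophoblast rows each hold genes above 5, the syncytiotrophoblast row spans -0.57 to 0.36, and the decidual row holds 6 genes above 4.

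Markers of the decidua, the maternal side of the placenta, also read higher on the same array. Of the decidual and uterine natural killer list 6 of 8 genes stood at least 1 above the other arrays, with a list median of 4.55. The granzyme genes Gzmd, Gzme, Gzmf and Gzmg read 9.23, 9.44, 10.03 and 10.81 there. They also read higher on labelled-null replicate 2 (5.47, 6.11, 6.82 and 7.36) than on the remaining arrays, where the highest were 3.35, 3.93, 5.17 and 5.72. On labelled-null replicate 2 the member genes did not stand apart: Eomes read 3.91 and Tpbpa 3.73. The summed log2 level of the list was 33.50 to 40.00 on the wild-type arrays, 37.97 and 50.53 on labelled-null replicates 1 and 2 and 70.10 on replicate 3. Since natural killer cells also transcribe Eomes, these values stand beside its reading, and their part in it was not tested. The 2 sets of perforin (Prf1) disagreed: on the brighter one labelled-null replicate 3 was -0.22 from the mean of the other arrays, and on the other it was the highest array, at 5.32 against 4.64 to 5.13. Nkg7, a granule protein of natural killer cells, read 4.20 against 3.51 to 3.97.

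Of the yolk sac endoderm list 0 of 9 genes stood at least 1 above the others on labelled-null replicate 3, with Ttr and Afp at -0.62 and -0.60 from their mean. By the brightest set of each, both genes were lower on all 3 labelled-null arrays, with replicate 3 between the other 2. Not all of their other sets followed. Ttr, a thyroid hormone carrier, read 6.42, 8.32 and 7.42 on the wild-type and 4.75, 6.10 and 5.98 on the labelled-null arrays, with an adjusted p of 1.00 in limma and of 0.0361 with the replicate block. The endothelial and blood list, relevant to Gata2, likewise gave 0 of 10 genes and a median of -0.08. Within it the endothelial cadherin Cdh5 read 7.70 on labelled-null replicate 3 and 6.87 to 7.12 elsewhere on its brighter set, with a difference of 0.11 on the other, and the embryonic globin Hbb-bh1 read 12.83, the lowest of the 6 arrays. The epithelial list, relevant to Tfap2c, gave 0 of 6 genes. Krt5, a keratin of basal epithelium, read 6.56, the lowest array. Of the cranial neuron list 0 of 6 stood at least 1 above.

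The genes whose profile over the 6 arrays was most like a member's were found by Pearson correlation among 728 genes that spanned at least 1. Eomes was most like Mical2, Ccl6 and Slc22a4 (r = 0.9963, 0.9951 and 0.9908), Tpbpa was most like Plaur, Anxa1 and Slc41a2 (r = 0.9972, 0.9949 and 0.9942), and Gata2 was most like Gm2a, Chdh and Rsad2 (r = 0.9895, 0.9865 and 0.9849). Each of these profiles has labelled-null replicate 3 as its highest array, and 266, 263 and 202 genes exceeded an r of 0.9 with Eomes, Tpbpa and Gata2, so that 1 array sets most of this likeness. Cdx2 spanned 1.05 and was most like Zfp982, Cpox and Prap1 (r = 0.9087, 0.8941 and 0.8572), and 1 gene exceeded 0.9.

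Between the genotypes no member passed the threshold. A gene was tested where its brightest set exceeded 4 on at least 3 arrays, which held for 5 of 8 members (Tfap2c, Gata2, Gata3, Ascl2 and Cdx2) and not for Eomes, Tpbpa and Elf5. Of those tested, 0 of 5 had an adjusted p under 0.05 in limma with Benjamini-Hochberg adjustment over 16074 genes, beside 6 genes or 0.0373% of all tested, and 2 of 5 had an unadjusted p under 0.05, beside 430 genes or 2.68%. Gata2 averaged 9.14 ± 0.13 on wild-type and 9.63 ± 0.45 on labelled-null arrays (SD, n = 3 each). Its difference of 0.50 (SE 0.20) had an adjusted p = 1.00 in limma. A two-sided exact permutation test gave p = 0.1, the smallest that 3 arrays against 3 allow, with 3 of 3 labelled-null arrays above the wild-type arrays. Without labelled-null replicate 3 the difference was 0.24 (SE 0.12, adjusted p = 1.00 in limma).

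Tfap2c averaged 11.30 ± 0.04 and 11.56 ± 0.21 (SD, n = 3 each), and its difference of 0.25 (SE 0.10) had an adjusted p = 1.00 in limma and p = 0.1 in the exact permutation test. It was 0.13 (SE 0.08) without labelled-null replicate 3. Gata2 and Tfap2c were the 2 of 5 members with all labelled-null arrays above the wild-type arrays, beside 3.17% of all genes tested. Gata3 differed by 0.27 (SE 0.14), Cdx2 by 0.14 (SE 0.26) and Ascl2 by 0.05 (SE 0.16), each with an adjusted p of 1.00 in limma. Exact permutation p-values were 0.2, 0.7 and 1.00, and the genotypes overlapped on all 3 genes. Cdx2 was lower on the labelled-null arrays without wild-type replicate 2 (-0.14) or labelled-null replicate 1 (-0.02), and Ascl2 without labelled-null replicate 1 (-0.12).

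**Figure D4:**
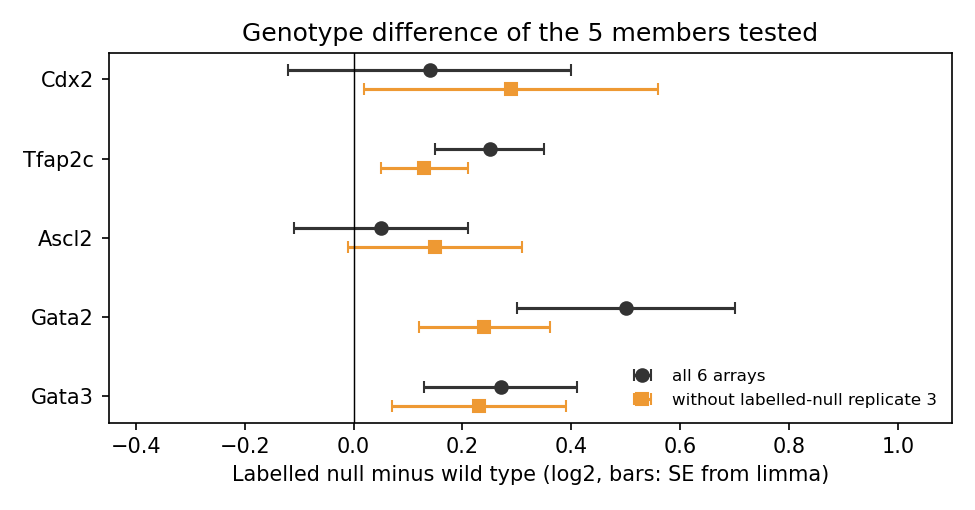
Difference between labelled-null and wild-type arrays (log2, horizontal axis; bars are the standard error from limma) for the 5 member genes tested, with all 6 arrays (circles) and without labelled-null replicate 3 (squares). Gata2 moves from 0.50 to 0.24 and Tfap2c from 0.25 to 0.13 when that array is left out.

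With every probe set fitted, 18 of 18 member sets included, 0 member sets had an adjusted p under 0.05 in limma and 4 had an unadjusted p under 0.05, beside 2 called sets or 0.00572% of 34958 at the adjusted threshold and 918 sets or 2.63% at the unadjusted one. On 5 of 18 member sets all labelled-null arrays lay above the wild-type arrays, beside 3.12% of all sets: both of Gata2, 2 of Tfap2c and 1 of Eomes. For Eomes the differences were 0.46 and 0.86, for Tpbpa 0.58, 1.08 and 0.20 (in the order above), and for Elf5 -0.12 and 0.09, none of them past the threshold. Labelled-null replicates 1 and 2 alone were -0.09 and 0.32 from the wild-type mean on the Eomes sets and 0.11, 0.10 and 0.26 on the Tpbpa sets. On the brightest Eomes set and on 2 of 3 Tpbpa sets the difference between genotypes thus came mostly from labelled-null replicate 3. On the second Eomes set all labelled-null arrays were above the wild-type arrays, and on the third Tpbpa set replicates 1 and 2 were the highest. In bulk tissue, more cells of a type and more RNA per cell cannot be told apart.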

How the data were processed

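The deposited table holds log2 expression, 1 value per probe set and array. GCRMA is named as the tool per the submitters' processing notes, with no version stated; it models background from probe sequence, equalizes the arrays' distributions and compresses differences near background. Labelled cDNA was made from 100 ng of total RNA, per the labels' protocols. That the deposited unit is log2 was read from the values (1.95 to 15.11). Array medians lay between 6.08 and 6.15. Precision is limited by there being 6 arrays.

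Of 45101 probe sets, 34958 had 1 gene symbol in the platform annotation, 932 had several and 9211 none. The 8 member genes were matched by gene ID to the RefSeq table. A gene was represented by its set with the highest mean. Genes above 4 on at least 3 arrays, 16074 of 18194, were fitted on genotype with limma 3.58.1 in R 4.3.3 (eBayes with intensity trend) and adjusted by Benjamini-Hochberg, with a threshold of 0.05. The limma step was tested on simulated data. The members, lists and alternatives were chosen with earlier results of these data known. Named genes were the members, their readable paralogs and the 3 genes most like each member that spanned at least 1. Up to 4 genes per list with the largest difference on labelled-null replicate 3 were also named. The text prints part of these genes. Prl3d1, Prl3b1, Cts6, Synb, Dlx2, Prrx1, Msx1, Prf1, Nkg7, Prl8a2 and Tpbpb were named outside the rule.

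Replicate numbers are shared by the genotypes in the labels. Each array's deviation from its genotype mean correlated with that of the equally numbered array at 0.261, 0.13 and 0.135. With those of other numbers it correlated between -0.195 and 0.065. A pairing by number, chosen on the data alone, was therefore run as an alternative setting, the replicate block. The main limma fit and the exact permutation test did not use this pairing. No 2 arrays were duplicates: within a genotype their values differed with an SD of 0.247 to 0.411. Single members were also tested by exact permutation over the 20 splits of the arrays.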

Additional observations from a re-analysis of the deposited data

How the results depend on the processing

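The count of 0 members called between genotypes in limma was also found under all 10 other settings and with each array left out in turn (0 to 0). With the replicate block, which pairs arrays by number, 10 genes passed over all genes (4 higher, 6 lower) and 0 members, so the pairing changed no call of a member; Gata2 then had an adjusted p of 0.798 and Tfap2c 0.967. Over all genes, where 6 passed, 2 passed with no filter, with values under 4 raised to 4, with every probe set as a row of its own or without the intensity trend, and 0 with probe sets averaged per gene (477 had an unadjusted p under 0.05 in limma). Leaving out 1 array gave between 0 genes (wild-type replicate 3 left out; 504 had an unadjusted p under 0.05 in limma) and 22 (labelled-null replicate 3 left out). With array weights Ascl2 was -0.02. The other differences of tested members kept their sign under the settings run: 10 for Tfap2c, Gata2 and Gata3, 9 for Cdx2 and 8 for Ascl2, that with array weights included. Gata2 ranged from 0.24 to 0.64 and Tfap2c from 0.13 to 0.33 with 1 array left out, while Cdx2 ranged from -0.14 to 0.35 and Ascl2 from -0.12 to 0.15. On labelled-null replicate 3, 2 members and 229 genes stood at least 1 above the other arrays. Asking for a difference of 2 left 97 genes and 0 members by their brightest sets, though the second Tpbpa set stood 2.88 above. With 1 of the other arrays left out 232 to 239 genes and 2 members stood at least 1 above. Values near 4 are a weak basis for a fold change. This touches every value of Cdx2, Eomes, Elf5 and Tpbpa and the dim sets of Ascl2.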
